A study of Mus musculus with 8 samples.

Results

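The 8 hepatocyte lineage transcription factors described here are the nuclear receptors Hnf4a and Nr5a2 (LRH1), the forkhead genes Foxa1, Foxa2 and Foxa3, the leucine zipper gene Cebpa, and the homeobox genes Onecut1 (HNF6) and Prox1. They were taken by symbol from the deposited tables, which list 22923 gene symbols, and each was found once in every table. The livers came from mice on the C57BL/6 strain in 4 groups: knockout high fat, flox high fat, knockout chow and flox chow. Knockout livers carry the genotype Xbp1-/-, a deletion that the study's title places in the liver, flox livers carry Xbp1flox, and the high-fat diet, fed for 4 weeks, was combined with a high-fructose corn syrup equivalent. The sources used here do not state what drives the deletion, nor the age and sex of the mice. Each cohort held 4 mice, pooled into 2 libraries, and each group is represented by 1 RPKM value per gene (reads per kilobase of transcript scaled to sequencing depth). Differences are therefore given without a test, and how far 2 pools of a group differ is unknown.

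Hepatocyte identity rests on a small set of transcription factors that bind together at liver genes and at each other's regulatory regions. The FOXA proteins open chromatin early in liver development, HNF4A maintains the program of plasma protein, lipoprotein and metabolic genes, and C/EBP alpha drives energy metabolism genes while holding back division. ONECUT1 acts in hepatocyte and bile duct differentiation, LRH1 in bile acid and cholesterol genes, and PROX1 in hepatoblast expansion and as a corepressor that binds LRH1 and HNF4A. XBP1 is the factor that the endoplasmic reticulum stress sensor IRE1 activates by splicing its messenger RNA.

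The tables as a whole set the frame for these values. Xbp1 stood at 34.1 RPKM in knockout high fat against 90.7 in flox high fat, and at 44.2 RPKM in knockout chow against 112 in flox chow. Of 23 hepatocyte markers, 18 were listed above 0 in every group, Ttr (transthyretin) between 2904 and 5347 RPKM. The defining marker Alb (albumin) was listed at 0 in all 4 groups, so an exact 0 can be a failed estimate. The near-identical genes Serpina1a, Serpina1b, Serpina1c and Serpina1d were listed at 0 in both flox groups, while all 4 stood between 1722 and 3095 RPKM in knockout high fat and, in knockout chow, Serpina1b stood at 6623 and Serpina1d at 4706 RPKM with the other two at 0. The zeros of Serpina1b and Serpina1d follow genotype, while Serpina1a and Serpina1c were above 0 in knockout high fat alone. All of these zeros enter the deposited sums. None of the 8 factors was listed at 0. The deposited values summed to 367414 RPKM in knockout high fat against 461725 in flox high fat, with 461392 in knockout chow against 513694 in flox chow. Because these sums differ, directions were also read after 3 rescalings: to a median log2 ratio of 0, to equal sums over all genes, and to equal sums without the 50 most abundant genes.

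Messenger RNA of all 8 factors was measured at 3.96 RPKM or more in every group, knockout livers included. A log2 change is log2((a + 1)/(b + 1)) of RPKM and was called past an absolute value of 1. In no comparison was any of the 8 called. On the high-fat diet 1.07% of 10327 genes were called higher and 1.86% lower in knockout livers, and on chow 0.252% higher and 1.37% lower of 10322 genes. The high-fat diet had 0.668% of 10328 genes called higher and 0.794% lower in knockout livers, and 0.213% higher and 0.426% lower of 10322 genes in flox livers. The difference between the knockout changes on the 2 diets passed the threshold upward in 0.659% and downward in 0.572% of 10319 genes, and in 0 of the 8. With so few genes called in all, 0 of 8 lies near the background. On the deposited scaling the widest differences were a lower Foxa2 in knockout livers on the high-fat diet and a higher Prox1 in flox livers on that diet.

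**Figure D1:**
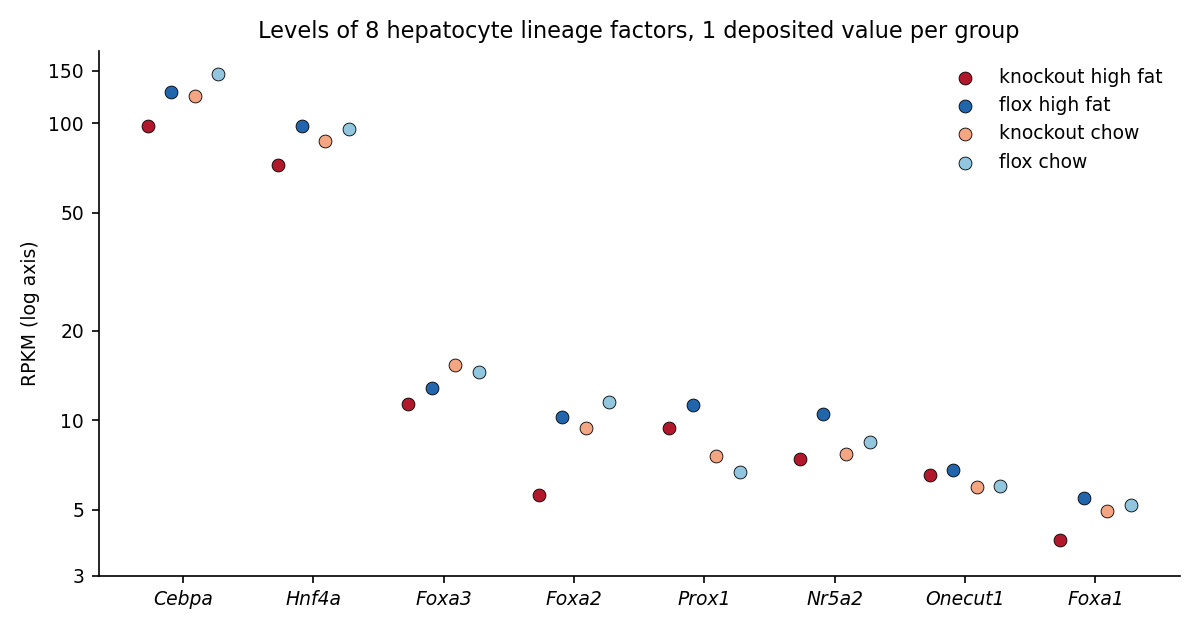
Level of each factor in RPKM on a log axis, 1 point per group in the order knockout high fat, flox high fat, knockout chow, flox chow. Cebpa and Hnf4a lie above 70 RPKM and the other 6 genes below 16 RPKM in every group, and Foxa2 in knockout high fat lies apart from its other 3 values.

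The order of abundance was nearly the same in all groups. Cebpa ranked highest, Hnf4a next, then Foxa3, and Foxa1 lowest in each of the 4. Together Cebpa and Hnf4a held 79.3% of the summed RPKM of the 8 genes in knockout high fat against 79.8% in flox high fat, with 80.5% in knockout chow against 82.2% in flox chow. The middle of the order differed: Foxa2 ranked 7 of 8 in knockout high fat and 6 in flox high fat, against 4 in both chow groups, while Prox1 ranked 4 on the high-fat diet and 6 on chow in both genotypes. Without replicates it cannot be said which neighbours in this order differ beyond their spread. The 8 genes together held between 0.0566% and 0.0612% of all RPKM in a group.

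Hnf4a, the nuclear receptor at the centre of the hepatocyte network, lies on mm10 chromosome 2, 163506808 to 163572910. It stood at 72.2 RPKM in knockout high fat against 97.5 in flox high fat, with 87.0 in knockout chow against 95.4 in flox chow. On the deposited scaling knockout high fat held the lowest value, and the 2 flox groups were close to each other. The log2 change in knockout livers was -0.43 on the high-fat diet and -0.13 on chow, and under the 3 rescalings the high-fat value shrank to between -0.26 and -0.10 while the chow value lay between -0.10 and 0.02. The high-fat diet went with -0.27 in knockout and 0.03 in flox livers; the value in knockout livers became 0.06 with equal sums over all genes.

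Hnf4a is transcribed from 2 start regions, and a table with 1 value per gene cannot separate them. RefSeq places the starts 40298 bases apart, at 163506857 and 163547155; in adult liver the downstream one, known as P1, is the main promoter. The upstream window, from 250 bases before to 50 bases after the start on the plus strand of GRCm38.p6, is shown because the factors of this set are known to bind one another's promoters. Capitals mark a match to the ONECUT motif ATTGAT, 59 bases before the start; it reads on the opposite strand, so the capitals show its reverse complement.
Hnf4a upstream start (chr2:163506607-163506906): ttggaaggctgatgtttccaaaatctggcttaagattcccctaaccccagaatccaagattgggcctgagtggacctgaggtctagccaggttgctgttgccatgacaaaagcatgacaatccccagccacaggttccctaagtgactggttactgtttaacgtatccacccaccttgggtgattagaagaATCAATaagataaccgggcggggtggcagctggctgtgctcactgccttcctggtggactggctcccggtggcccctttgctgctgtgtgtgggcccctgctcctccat
Searched on both strands, the ONECUT letters occur in 7.54% of 32851 promoter windows of the same length. A match is a description of the letters, not a binding site.

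An antisense transcript at this locus differed more than Hnf4a did. Hnf4aos, a noncoding RNA on the opposite strand (chromosome 2, 163493807 to 163541720), was listed under its older symbol 0610008F07Rik and was picked out after its values had been seen. It stood at 1.43 RPKM in knockout high fat against 4.87 RPKM in flox high fat, and at 3.17 RPKM in knockout chow against 5.40 RPKM in flox chow. The log2 change in knockout livers was -1.27 on the high-fat diet, which passed the threshold, and -0.62 on chow, which did not. Across the 3 rescalings the high-fat value ran from -1.16 to -1.06, but a pseudocount of 5 RPKM gave -0.62 and ended the call. As a share of Hnf4a RPKM, which does not depend on scaling between groups, Hnf4aos was 1.99% in knockout high fat against 4.99% in flox high fat, and 3.65% in knockout chow against 5.67% in flox chow. Its 5' end lies between the 2 Hnf4a starts, 5435 bases before the downstream one, and the exons of the 2 genes share 0 bases in GENCODE M21; whether the counting used strand is not given in the sources used here. Of 10327 genes, 0.842% had a lower log2 change on the high-fat diet.

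**Figure D2:**
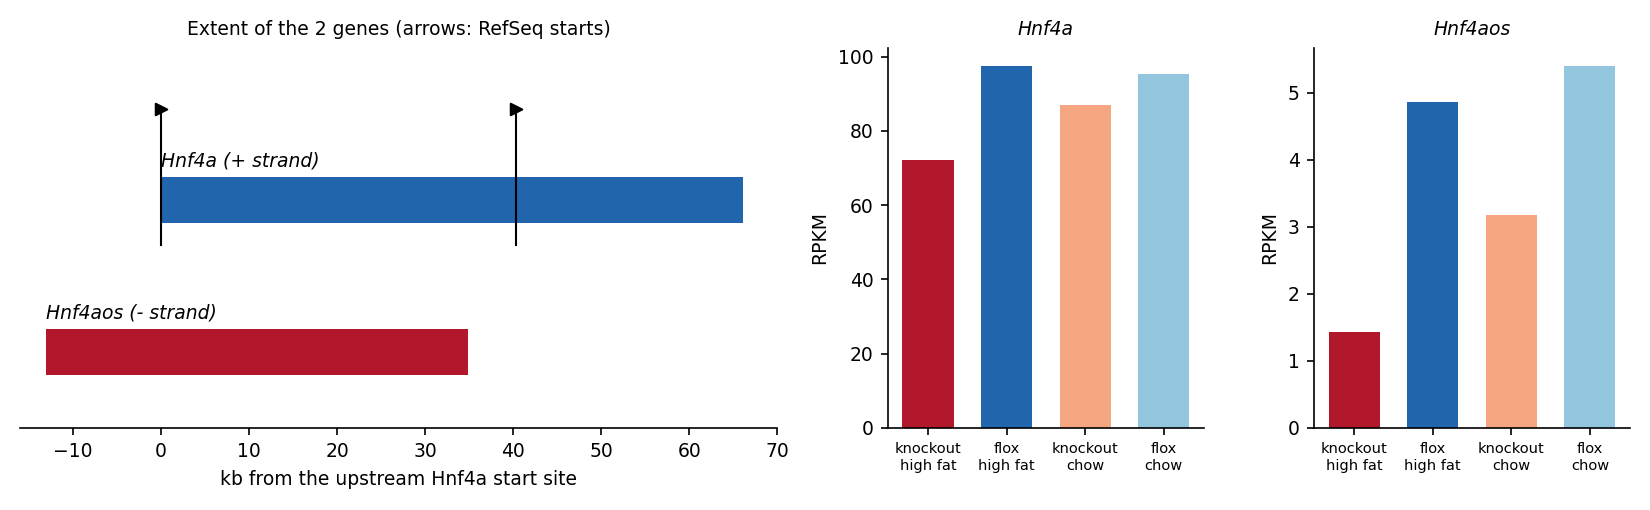
Left, extent of Hnf4a and its antisense gene Hnf4aos in kb from the upstream Hnf4a start, with arrows at the 2 RefSeq starts; right, RPKM of each gene in the 4 groups as bars. Hnf4aos ends its overlap before the downstream start and is lowest in knockout high fat at 1.43 RPKM, against 4.87 RPKM in flox high fat.

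Foxa2, a pioneer forkhead factor that also acts in fasting lipid metabolism, varied most among the 8 on the deposited scaling. The gene (chromosome 2, 148042877 to 148046969) stood at 5.61 RPKM in knockout high fat against 10.2 in flox high fat, with 9.41 in knockout chow against 11.6 in flox chow. Knockout high fat was the low group, and the highest of the 4 values was 2.06 times the lowest. The log2 change in knockout livers was -0.77 on the high-fat diet, where 4.31% of the genes tested had a lower value, and -0.27 on chow. Foxa2 stayed lower under the 3 rescalings on both diets, with values from -0.62 to -0.48 on the high-fat diet and from -0.24 to -0.13 on chow. The log2 change with the high-fat diet was -0.66 in knockout livers and -0.16 in flox livers. At a 1.5-fold threshold Foxa2 is called lower in knockout high fat against both flox high fat and knockout chow, where 8.33% and 4.7% of all genes are called lower. Under the rescalings to equal sums Prox1 varied more than Foxa2. Its log2 change with the diet in flox livers was 0.78 without the 50 most abundant genes and 0.80 over all genes.

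The upstream Foxa2 promoter window on the minus strand is shown because it holds a match to the motif of another factor of the set, ONECUT1, which is known to activate Foxa2. Capitals mark the ATTGAT match, 213 bases before the start.
Foxa2 upstream start (chr2:148046920-148047219): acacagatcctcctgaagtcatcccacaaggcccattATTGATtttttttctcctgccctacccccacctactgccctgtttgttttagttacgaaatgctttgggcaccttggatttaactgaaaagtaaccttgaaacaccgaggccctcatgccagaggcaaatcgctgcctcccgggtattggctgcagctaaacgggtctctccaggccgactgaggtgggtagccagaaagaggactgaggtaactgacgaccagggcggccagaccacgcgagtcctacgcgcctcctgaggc
RefSeq gives Foxa2 2 further starts. Their windows hold none of the factor motifs searched.

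Foxa1 and Foxa3 bind the same DNA motif as Foxa2, and their levels varied less. Foxa1 (chromosome 12, 57540628 to 57546916) stood at 3.96 RPKM in knockout high fat against 5.49 in flox high fat, with 4.95 in knockout chow against 5.18 in flox chow. Foxa3 (chromosome 7, 19013284 to 19023538), the most abundant of the 3 in every group, stood at 11.3 RPKM in knockout high fat against 12.8 in flox high fat, with 15.4 in knockout chow against 14.6 in flox chow. Foxa1 was lowest in knockout high fat on the deposited scaling, and Foxa3 was lower on the high-fat diet than on chow in both genotypes. In knockout livers Foxa1 had log2 changes of -0.39 on the high-fat diet and -0.05 on chow, and Foxa3 of -0.17 and 0.07. The high-fat value of Foxa3 turned to 0.12 and 0.14 with equal sums without the 50 most abundant genes and over all genes, while that of Foxa1 stayed negative at -0.25 to -0.12. The chow value of Foxa1 became 0.07 and 0.08 under the same 2 rescalings.

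Within the FOXA family the make-up of the summed RPKM differed between genotypes. Foxa2 was 26.8% of it in knockout high fat against 35.8% in flox high fat, and 31.6% in knockout chow against 36.9% in flox chow. Foxa3 was 54.2% in knockout high fat against 44.9% in flox high fat, and 51.7% in knockout chow against 46.6% in flox chow. Foxa1 held 18.9% in knockout high fat against 19.2% in flox high fat, with 16.6% in knockout chow against 16.5% in flox chow. These shares do not depend on scaling between groups. The ratio of Foxa3 to Foxa2 was 2.02 in knockout high fat against 1.25 in flox high fat, with 1.64 in knockout chow against 1.26 in flox chow, so the flox groups were alike and both knockout groups were above them. A ratio shows unequal change and does not say which gene moved.

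**Figure D3:**
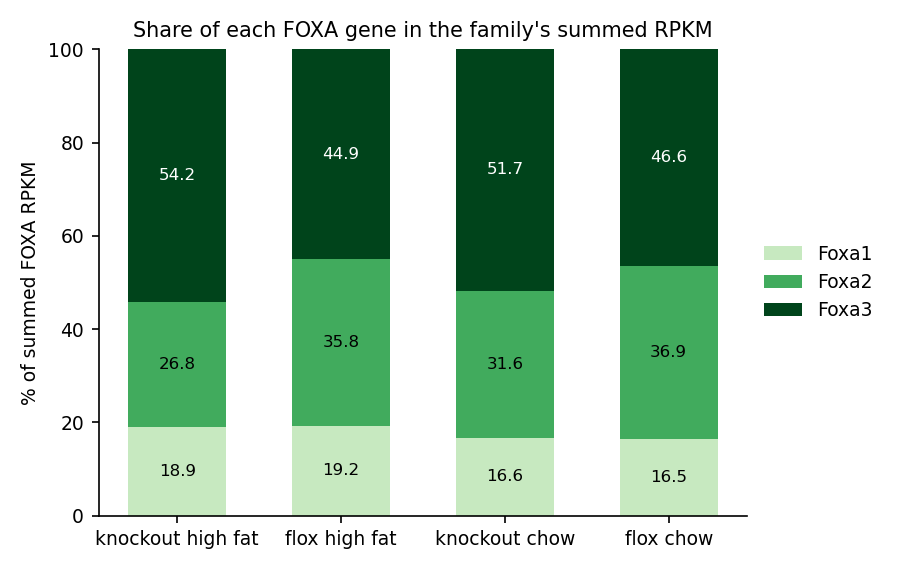
Stacked bars giving the percent of the summed RPKM of the 3 FOXA genes held by each gene in each group. The Foxa2 share is 26.8% in knockout high fat against 35.8% in flox high fat, and 31.6% in knockout chow against 36.9% in flox chow.

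Cebpa (chromosome 7, 35119293 to 35121928) was the most abundant of the set. It stood at 97.9 RPKM in knockout high fat against 128 in flox high fat, with 123 in knockout chow against 146 in flox chow. Knockout was below flox on each diet, and the high-fat diet below chow in each genotype. The log2 change in knockout livers was -0.38 on the high-fat diet and -0.25 on chow, and across the 3 rescalings the values ran from -0.21 to -0.05 and from -0.21 to -0.09. Set against Cebpb, the family member linked to the acute phase response, the ratio of Cebpa to Cebpb was 1.52 in knockout high fat against 1.75 in flox high fat, with 1.91 in knockout chow against 1.92 in flox chow. Cebpb itself stood at 64.6 RPKM in knockout high fat against 73.2 RPKM in flox high fat, and at 64.4 RPKM in knockout chow against 76.1 RPKM in flox chow. Cebpa shares 51 exonic bases with the antisense gene Gm45091.

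Onecut1, a factor of both hepatocyte and bile duct lineages, varied least on the deposited scaling. The gene (chromosome 9, 74861921 to 74891781) stood at 6.57 RPKM in knockout high fat against 6.78 in flox high fat, with 5.96 in knockout chow against 6.03 in flox chow. Knockout and flox were close on each diet, and both high-fat values were above both chow values. The log2 change in knockout livers was -0.04 on the high-fat diet and -0.01 on chow, and both turned positive under all 3 rescalings, up to 0.25 and 0.12. With equal sums over all genes the log2 change with the high-fat diet was 0.41 in knockout and 0.28 in flox livers. Those of Cebpa were then smaller, at -0.002 and -0.04. The ratio of Onecut1 to Hnf4a was 0.0910 in knockout high fat against 0.0695 in flox high fat, with 0.0686 in knockout chow against 0.0632 in flox chow. Its paralog Onecut2 stood at 7.31 RPKM in knockout high fat against 6.49 in flox high fat, with 7.25 in knockout chow against 7.49 in flox chow. In GENCODE M21, 2171 of 4113 exonic bases of Onecut1 lie in exons of the noncoding gene Gm20649 on the same strand, so reads there cannot be assigned to 1 of the 2.

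The Onecut1 promoter window on the plus strand is shown because it alone among the 13 windows of the 8 genes holds ACGTG, the core letters of XBP1 sites. Capitals mark CACGTG, 232 bases before the start, which holds ACGTG on both strands as 2 overlapping matches.
Onecut1 start (chr9:74861671-74861970): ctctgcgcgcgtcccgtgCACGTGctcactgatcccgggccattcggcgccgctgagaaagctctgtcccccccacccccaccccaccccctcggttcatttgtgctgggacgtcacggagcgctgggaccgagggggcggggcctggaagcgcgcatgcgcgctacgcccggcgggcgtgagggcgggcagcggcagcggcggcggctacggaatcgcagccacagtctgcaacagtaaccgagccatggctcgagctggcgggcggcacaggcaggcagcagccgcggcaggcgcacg
These 5 letters occur in 19.6% of the 32851 windows. The longer unfolded protein response element TGACGTG, found in 2.01% of all windows, and the ER stress element ERSE (CCAAT and CCACG 9 bases apart), found in 0.119%, were in 0 of the 13 windows. So were the HNF4 letters AAAGTCC (4.21% of all windows) and the LRH1 letters AAGGTCA (4.72%), which says only that these letters are not in these windows. The FOXA letters TGTTTAC were in 1 window (Foxa1, 141 bases before its start; 3.65% of all windows), the C/EBP letters TTGCNNAA in 1 (Nr5a2; 10.8%), the ONECUT letters in 2 and the TATA letters TATAAA in 5 (13.6%).

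Nr5a2, the receptor LRH1 that activates bile acid and sterol transport genes, was highest in flox high fat. The gene (chromosome 1, 136842571 to 136960448) stood at 7.43 RPKM in knockout high fat against 10.5 in flox high fat, with 7.69 in knockout chow against 8.48 in flox chow. The other 3 groups were closer together on the deposited scaling. The log2 change in knockout livers was -0.45 on the high-fat diet and -0.13 on chow. The first stayed negative under the 3 rescalings, from -0.30 to -0.16, and the second reached 0.01 with equal sums. The log2 change with the high-fat diet was -0.04 in knockout livers and 0.28 in flox livers, and the first turned positive under every rescaling, up to 0.25.

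Nr0b2 (SHP), a repressor that LRH1 induces and that blocks LRH1 in turn, was the most abundant of 16 partners and regulators tested. Of the 16, 0 were called and 12 lay below 0 in knockout livers on the high-fat diet (median -0.09), where 70.1% of all genes lay below 0. Nr0b2 stood at 18.2 RPKM in knockout high fat against 36.7 RPKM in flox high fat, and at 22.1 RPKM in knockout chow against 30.6 RPKM in flox chow. With the pseudocount of 1 RPKM its log2 change of -0.98 on the high-fat diet lay just inside the threshold, and that on chow was -0.46. Whether Nr0b2 is called on the high-fat diet thus depends on the pseudocount. Of 10 LRH1 target genes with at least 1 RPKM, 2 were called lower in knockout livers on the high-fat diet and 0 on chow. The 2 were the sterol exporter genes Abcg8 (-2.16) and Abcg5 (-1.52). Of all genes, 1.86% were called lower on the high-fat diet and 1.37% on chow. Both exporter genes were called higher with the high-fat diet in flox livers, Abcg5 by 1.57 and Abcg8 by 1.42, as were 0.213% of all genes. This comparison shares the flox high fat group with knockout against flox on the high-fat diet. In knockout livers neither exporter gene was called for the diet, while Cyp8b1, the sterol hydroxylase of cholic acid synthesis, was called lower (-1.84). Of all genes, 0.794% were called lower there.

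Prox1 was the factor most different between the diets in flox livers. In knockout livers Foxa2 (-0.66), Foxa3 (-0.41) and Cebpa (-0.33) had larger log2 changes with the diet on the deposited scaling. Under every rescaling Prox1 changed more there than Foxa3 and Cebpa, and under both rescalings to equal sums Prox1 also changed more than Foxa2. The gene (chromosome 1, 190118035 to 190170714) stood at 9.42 RPKM in knockout high fat against 11.2 in flox high fat, with 7.58 in knockout chow against 6.69 in flox chow. Both high-fat groups were above both chow groups. The log2 change with the high-fat diet was 0.67 in flox livers, where 99.2% of the genes tested had a lower value, and 0.28 in knockout livers. Both stayed positive under the 3 rescalings, from 0.68 to 0.80 in flox and from 0.41 to 0.58 in knockout livers. At a 1.5-fold threshold the value in flox livers is called, with 1.23% of all genes called higher. Between genotypes the log2 change was -0.23 on the high-fat diet, turning to 0.05 and 0.07 under the 2 rescalings to equal sums, and 0.16 on chow. The ratio of Prox1 to Nr5a2, the receptor it represses, was 1.27 in knockout high fat against 1.07 in flox high fat, with 0.986 in knockout chow against 0.789 in flox chow, so it was above chow on the high-fat diet and above flox in knockout livers.

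PROX1 is also a factor of lymphatic endothelium. The 11 endothelial markers with a row, lymphatic ones included, summed to 72.8 RPKM in knockout high fat against 73.7 in flox high fat, with 69.5 in knockout chow against 77.4 in flox chow. The sinusoidal gene Clec4g was the largest part of each sum, at 35.5 RPKM in knockout high fat against 35.2 in flox high fat, with 39.9 in knockout chow against 47.8 in flox chow. Of the 9 tested, 0 were called in any comparison. With the high-fat diet in flox livers Clec4g had a log2 change of -0.43 and the other 8 lay above 0 (median of the 9 0.31). Between genotypes 2 of 9 lay below 0 on the high-fat diet (median 0.03) and 4 of 9 on chow (median 0.02). Of all genes, 70.1% and 54.2% did. Pdpn, a defining lymphatic marker, was below 0.19 RPKM in every group. Lyve1 stood at 3.25 RPKM in knockout high fat against 5.63 in flox high fat, with 2.11 in knockout chow against 3.28 in flox chow. Its log2 change with the high-fat diet was 0.63 in flox and 0.45 in knockout livers, and in knockout livers -0.64 on high fat and -0.46 on chow. Flt4 stood at 4.93 RPKM in knockout high fat against 4.54 in flox high fat, with 4.01 in knockout chow against 3.87 in flox chow. The part of endothelial cells in the Prox1 values was not tested. Prox1 shares 133 exonic bases with the antisense gene Prox1os.

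**Figure D4:**
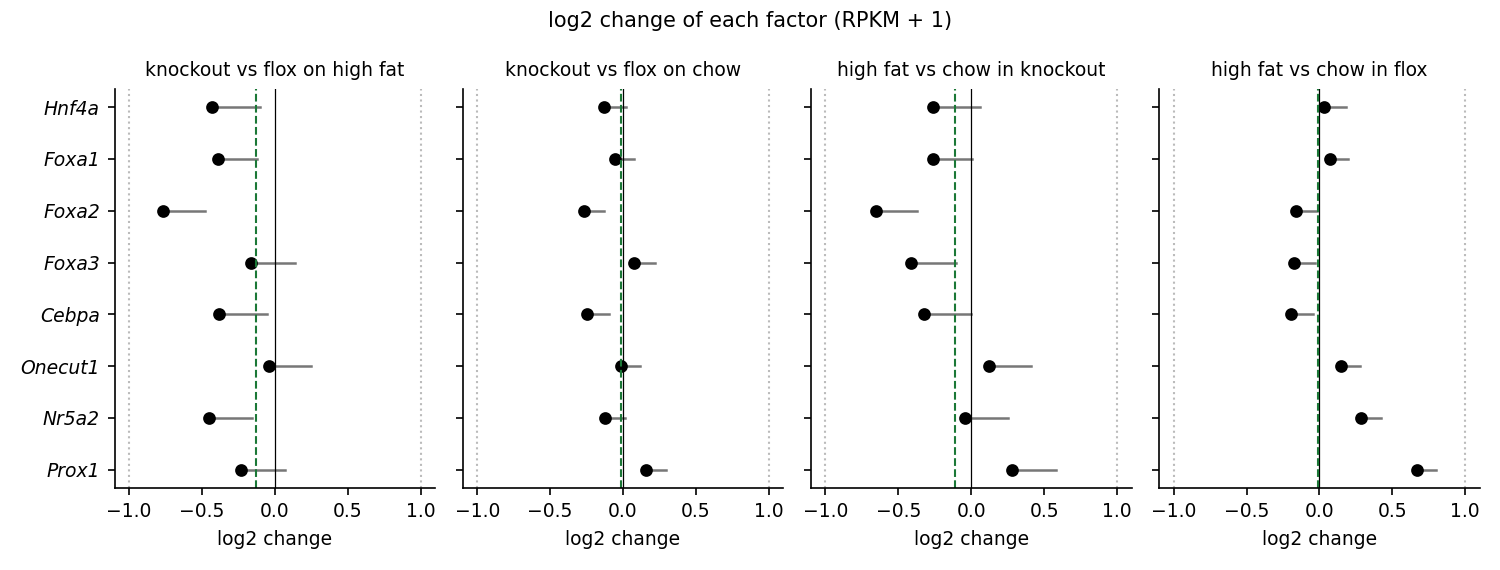
log2 change of each factor in the 4 comparisons; points use the deposited scaling and the grey bars span the values over it and the 3 rescalings. Dashed green lines mark the median of all genes tested and dotted lines the threshold of 1 in each direction. Foxa2 lies lowest in knockout against flox on high fat at -0.77 and Prox1 highest in high fat against chow in flox at 0.67, and bars that cross 0 change direction with the scaling, as those of Foxa3, Onecut1 and Prox1 do in the first panel.

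Seen together, the set leaned low in knockout livers on the high-fat diet. There all 8 had a log2 change below 0 (median -0.38, range -0.77 to -0.04), but so had 70.1% of all genes tested (median -0.13) and 80.3% of the 6089 genes with at least 5 RPKM in 1 group (median -0.22). Rescaling moved the median of all genes by 0.14, 0.25 and 0.27 (median log2 ratio of 0, equal sums without the 50 most abundant genes, equal sums over all genes) and left 7, 5 and 5 of the 8 below 0. In the same order, the median of all genes then lay at 0.008, 0.12 and 0.14, and that of the 8 at -0.23, -0.10 and -0.08. The 5 that stayed lower under every rescaling were Hnf4a, Foxa1, Foxa2, Cebpa and Nr5a2. On chow 6 of 8 lay below 0 (median -0.09), where 54.2% of all genes did, and 2 of 8, Foxa2 and Cebpa, did so under both rescalings to equal sums. With the high-fat diet 6 of 8 were below 0 in knockout livers (median -0.26, 66.4% of all genes) and 3 of 8 in flox livers (median 0.05, 52.5% of all genes), the 3 being Foxa2, Foxa3 and Cebpa. Among genes with at least 5 RPKM in 1 group the shares below 0 were 61.1% for knockout against flox on chow, 78.2% for high fat against chow in knockout livers and 60.5% in flox livers. The knockout change was lower on the high-fat diet than on chow for all 8 (median difference -0.31), as for 67.9% of all genes and 75% of those with at least 5 RPKM, and the sign turned for Cebpa and Onecut1 under the 3 rescalings.

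At the 1.5-fold threshold, knockout livers on the high-fat diet had 1 of 8 factors lower (Foxa2) and 0 higher. Of all genes, 8.33% were called lower there and 3.2% higher. On chow 0 of 8 were called in either direction, with 1.09% of genes higher and 3.84% lower. The high-fat diet had 1 of 8 lower (Foxa2) and 0 higher in knockout livers, with 4.7% of genes lower and 2.68% higher. In flox livers it had 1 of 8 higher (Prox1) and 0 lower, with 1.23% of genes higher and 1.68% lower. For the difference between diets 0 of 8 passed, with 2.32% of genes upward and 3.03% downward.

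In bulk liver, fewer cells of a type and less RNA per cell cannot be told apart, and marker sums of other cells differed between the same groups. The 14 cholangiocyte markers summed to 133 RPKM in knockout high fat against 42.0 in flox high fat, and to 63.6 RPKM in knockout chow against 42.0 in flox chow. Of 10 tested, 4 were called higher in knockout livers on the high-fat diet (Spp1, Tspan8, Epcam and Anxa13), as were 1.07% of all genes. Epcam, Krt19 and Cldn7 passed the filter of 1 RPKM only through knockout high fat, and Tspan8 and Anxa13 only through the knockout groups. The 10 were thus chosen in part by the groups where they were high. The 10 macrophage markers summed to 205 RPKM in knockout high fat against 158 in flox high fat, with 116 in knockout chow against 124 in flox chow. Cd5l, the most abundant of them, stood at 68.0 RPKM in knockout high fat against 59.8 in flox high fat, with 33.1 in knockout chow against 39.9 in flox chow. Of 9 macrophage markers tested, 0 were called between genotypes. In knockout against flox livers 0 lay below 0 on the high-fat diet (median 0.36) and 6 on chow (median -0.02). With the high-fat diet in knockout livers 2 were called higher, Marco (1.21) and Cd5l (1.02), as were 0.668% of all genes, and 0 lay below 0 (median 0.66). With that diet in flox livers 0 were called and 0 lay below 0 (median 0.27). The 10 stellate cell markers summed to 167 RPKM in knockout high fat against 100.3 in flox high fat, with 130 in knockout chow against 104 in flox chow. Dcn held most of each sum, at 129.7 RPKM in knockout high fat against 80.0 in flox high fat, with 107.6 in knockout chow against 86.7 in flox chow. Of 9 tested, 2 were called higher in knockout livers on the high-fat diet, the collagen genes Col3a1 and Col1a1, as were 1.07% of all genes. Ngfr passed the filter of 1 RPKM only through knockout high fat. With the high-fat diet in knockout livers, where 6 of the 8 factors lay below 0, Col3a1, Col1a1 (1.03) and the cholangiocyte list's Spp1 (1.36) were also called higher. The cholangiocyte list includes Spp1, which held 103 RPKM of its sum in knockout high fat against 20.6 RPKM in flox high fat, while the defining duct keratin Krt19 stood at 1.61 RPKM in knockout high fat against 0.632 RPKM in flox high fat. The 18 hepatocyte markers listed above 0 in all groups summed to 22888 RPKM in knockout high fat against 33735 in flox high fat, and to 30528 RPKM in knockout chow against 38425 in flox chow. Their part in the factors' values was not tested. Of 17 pancreas and gut markers, tissues that use several of the same factors, 11 were listed at 0 in all groups, and Cela1 (chymotrypsin-like elastase) held most of the summed level of the rest, at 3.39 RPKM in knockout high fat against 6.47 in flox high fat, with 8.76 in knockout chow against 12.2 in flox chow.

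Other transcription factors of the liver were likewise within the threshold in both knockout comparisons. Of 10 further genes of the same families with at least 1 RPKM, 5 lay below 0 on the high-fat diet (median 0.04), and of 28 other liver factors 23 did (median -0.30), with 0 called in either list. Of all genes, 70.1% lay below 0 there, and of those with at least 5 RPKM in 1 group 80.3% did. The share of all genes called was 1.86% lower and 1.07% higher. Atf5, a stress-responsive factor of high liver abundance, stood at 148 RPKM in knockout chow against 97.4 RPKM in flox chow, and at 112 RPKM in both high-fat groups. Bcl6, a zinc finger repressor picked after its values had been seen, was the 1 liver factor whose knockout change differed between the diets by more than 1 (difference -1.22). It stood at 6.72 RPKM in knockout high fat against 12.7 RPKM in flox high fat, and at 11.3 RPKM in knockout chow against 8.43 RPKM in flox chow.

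Among genes that the 8 factors are known to regulate, some were called. Of 28 such target genes tested on the high-fat diet, 4 were called lower in knockout livers and 1 higher (median -0.48), where 1.86% of all genes were called lower and 1.07% higher; the target list and the factors were not tested against each other. Those called lower were Ces2a (-2.72), F7 of blood clotting (-1.49), Apoa1 of high-density lipoprotein (-1.23) and Cps1 of the urea cycle (-1.04), and the 1 called higher was Igfbp1 (2.57), a secreted binder of insulin-like growth factors. On chow 2 of 28 were called lower, F7 (-1.45) and Ces2a (-1.34), as were 1.37% of all genes. Of 18 hepatocyte markers tested, 4 were called lower on the high-fat diet (median -0.59), Hp, Fgg, Hpd and Cps1, and 0 on chow (median -0.26). Of 5 fetal liver genes with at least 1 RPKM in 1 group, 2 were called higher in knockout livers on the high-fat diet, the noncoding RNA H19 and Cd24a. H19, Sox4 and Afp reached 1 RPKM only in knockout high fat. The 5 were thus chosen in part by the group where they were high, and the count is no evidence of a rise. H19 stood at 2.25 RPKM in knockout high fat against 0.0963 RPKM in flox high fat, and Cd24a at 6.00 RPKM in knockout high fat against 1.58 RPKM in flox high fat. Afp (alpha-fetoprotein) was not called, at 1.24 RPKM in knockout high fat against 0.573 RPKM in flox high fat. These lists overlap in part.

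**Figure D5:**
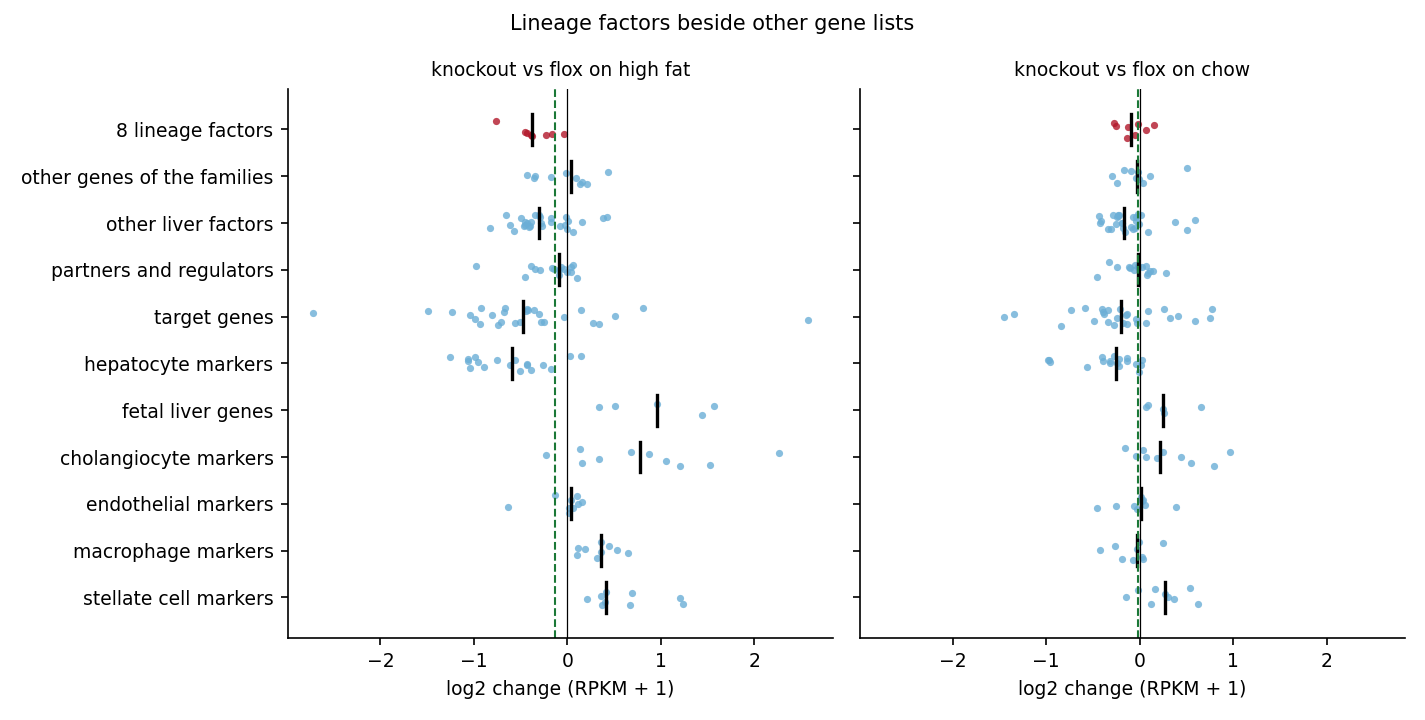
log2 change in knockout against flox livers for each gene with at least 1 RPKM in the 8 lineage factors (red) and in other lists (blue), on the high-fat diet (left) and chow (right); black bars are list medians and dashed green lines the median of all genes. The factors lie between -0.77 and -0.04 on the high-fat diet, while target genes run from -2.72 to 2.57.

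Genes with the most similar pattern were sought for the 3 factors with the widest range over the groups on the deposited scaling. The search covered 5585 other genes with a mean of at least 5 RPKM. Likeness was the Euclidean distance between log2(RPKM + 1) values centred over the 4 groups. Closest to Foxa2 were Mtfp1 (distance 0.034), Fam158a (0.036) and Hoga1 (0.061). Mtfp1, a mitochondrial membrane protein gene, stood at 6.67 RPKM in knockout high fat against 11.8 in flox high fat, with 11.3 in knockout chow against 13.6 in flox chow. Closest to Prox1 were Ipo7 (0.074), Erbb3 (0.080) and 1810011O10Rik (0.091). Erbb3, a receptor of the epidermal growth factor receptor family, stood at 11.2 RPKM in knockout high fat against 14.2 in flox high fat, with 9.52 in knockout chow against 8.70 in flox chow. Closest to Cebpa were Atg9a (0.020), Gstt1 (0.030) and Cyhr1 (0.032). With 4 values per gene and so many genes, these names describe the tables only.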

How the data were processed

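RNA of whole livers was sequenced in 8 libraries (4 groups of 2 pools). The authors' deposited values are RPKM, 1 per gene and group, per the file headers; file names give the group. The submitters' processing notes name TopHat2 2.0.7, Cuffdiff 2.1.1 and mm10. The sources used here do not state the annotation, strand handling, scaling between libraries or how libraries were combined. The depth behind each value is unknown: low values times transcript length fell on whole-read steps (tolerance 0.05 of a step, up to 5 steps) for 18.2% to 23.3% of values, too few to recover reads, so no interval is given.

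Rows of a repeated symbol (158 symbols, no factor among them) were summed, 10351 genes with at least 1 RPKM in 1 group were kept, and log2 changes used a pseudocount of 1 RPKM, which understates changes of low genes. A comparison omits genes with a 0 in either group. With no values per library there is no test. The factors, gene lists and threshold were chosen with earlier results of these data known. From each list the text names genes past the threshold in a knockout comparison (up to 4), or else the most abundant one; others are said to be picked after their values were seen. Other genes whose values bear on a factor or a list (Onecut2, Pdpn, Lyve1, Flt4, Krt19, Cldn7, Afp, Sox4, Cyp8b1, Marco, Dcn, Ngfr and the Serpina1 genes) were also added then.

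Gene coordinates are GENCODE M21 (GRCm38, the assembly of mm10), promoter sequences RefSeq on GRCm38.p6, found for all 8 factors (13 windows, searched for 9 motifs on both strands). Python 3.11.15, numpy 2.4.6, pandas 2.3.3 and matplotlib 3.10.9 were used; the calculations were tested on simulated data. The 9 alternatives were pseudocounts of 0.1 and 5 RPKM, no filter, a filter of 5 RPKM, a 1.5-fold threshold, the highest of repeated rows, and 3 rescalings. Some genes and a motif are not reported here.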

Additional observations from a re-analysis of the deposited data

Results flagged for a closer look

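With 1 value per group, 5 effects pointed in opposite directions under the same contrast, and none of these differences was tested. The knockout change of Foxa3 was -0.17 on the high-fat diet and 0.07 on chow (difference -0.24), and that of Prox1 was -0.23 and 0.16 (difference -0.39). The change with the high-fat diet was -0.27 in knockout and 0.03 in flox livers for Hnf4a (difference -0.30), -0.26 and 0.07 for Foxa1 (difference -0.34), and -0.04 and 0.28 for Nr5a2 (difference -0.33). All 5 differences kept their sign under the 3 rescalings, but the opposite directions did not: each of the 5 had the same sign in both groups under equal sums over all genes.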

How the results depend on the processing

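No paired analysis was possible because the deposited tables hold 1 value per gene and group, which also leaves no library to leave out. Of 360 values (5 log2 changes, the difference between diets included, of 8 factors under 9 alternatives), 329 kept their sign and their side of the threshold, 28 changed sign, all under a rescaling, and 3 passed the threshold, all at 1.5-fold. That threshold called 1 factor lower in knockout against flox on high fat, 1 lower with high fat in knockout livers (Foxa2 in both) and 1 higher with high fat in flox livers (Prox1). Of all genes, 8.33%, 4.7% and 1.23% were called in the same directions. The count of factors lower in knockout livers moved to 5 on high fat and 2 on chow under each rescaling to equal sums, and that of factors lower with high fat in knockout livers to 3 with equal sums over all genes. Under the rescalings to equal sums the median of all genes was above 0 in each of these comparisons. By construction these rescalings raise knockout high fat, whose deposited sum is lowest, and lower flox chow, whose sum is highest, against the other groups. Depth per library and the spread between pools limit all of these values.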
